A study of Mus musculus with 4 samples.

Results

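The ionotropic glutamate receptor subunits are the genes whose symbols begin with Gria, Grik, Grin or Grid followed by a digit. They were read by 18 probe sets of 12 genes, out of 12422 probe sets and 8251 named genes on the array. The probe sets were taken by gene name, but the family was chosen with earlier results of these data known. The transgenic animals were female mice overexpressing the synaptic form of human AChE (acetylcholinesterase, which degrades acetylcholine), and the controls were FVB/N mice, also labelled as female, without a named transgene. Total RNA of the prefrontal cortex was pooled from 4 mice for each array, giving 2 transgenic pools and 2 control pools, and this small number of arrays limits the precision. The promoter of the transgene, the strain of the transgenic mice and the age of either group are not given in the labels. A strain difference and the effect of the transgene therefore cannot be told apart. Xist, the RNA that coats the silenced X chromosome in females, read 178.5 and 228 at its 1 probe set in the transgenic pools, against 29.3 and 21.1 in the control pools, close to the intensity floor of 19.675 used below. The low control values go against the labelled sex. The Y-linked genes Eif2s3y and Kdm5d lay under that floor in every pool, and Uty and Sry 99555_at read at most 28 and 20.1. Sry 99556_s_at read 31.6 and 37.5 in the transgenic pools, against 14.8 and 8.6 in the control pools. The sex of the control pools rests on their labels. Its part in the receptor results was not tested. Nothing in the labels says that the pools of a group held different mice, so p-values measure the spread between arrays, which may be technical.

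Ionotropic glutamate receptors are ion channels that open when glutamate binds, and each channel is assembled from several subunits. AMPA receptors (Gria genes) carry the fast part of excitatory currents, and the Gria2 subunit, whose RNA is edited, makes them nearly impermeable to calcium. NMDA receptors (Grin genes) open only when the membrane is also depolarised and pass calcium, kainate receptors (Grik genes) act on both sides of the synapse, and the delta subunits (Grid genes) bind glycine or D-serine and take part in organising synapses. In the cortex, all of these classes are found on neurons, and AMPA receptors are anchored by scaffolds and by auxiliary subunits such as stargazin.

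Signal for the AMPA subunits Gria1 and Gria2 was higher in the transgenic pools, at 1 of 2 tested probe sets of Gria1 and at all 3 tested probe sets of Gria2. No kainate, NMDA or delta probe set passed the test. Of the 18 probe sets, 11 were bright enough to be tested, and of these 4 rose, 0 fell and 7 did not pass in limma at a Benjamini-Hochberg adjusted p under 0.05. At an unadjusted p under 0.05, 2 were lower, namely Grik2 98864_s_at and Grid1, where 13.1% of all tested probe sets were lower and 24.3% passed in either direction. Over all 7453 tested probe sets, 10% passed, with 5.46% higher and 4.56% lower in the transgenic pools. The 4 rises were between 2.06 and 3.23 on the log2 scale, and a log2 change of 2.06 or more was reached by 1.52% of all tested probe sets. Every deposited intensity is shown in the plot of the 18 probe sets by pool.

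**Figure D1:**
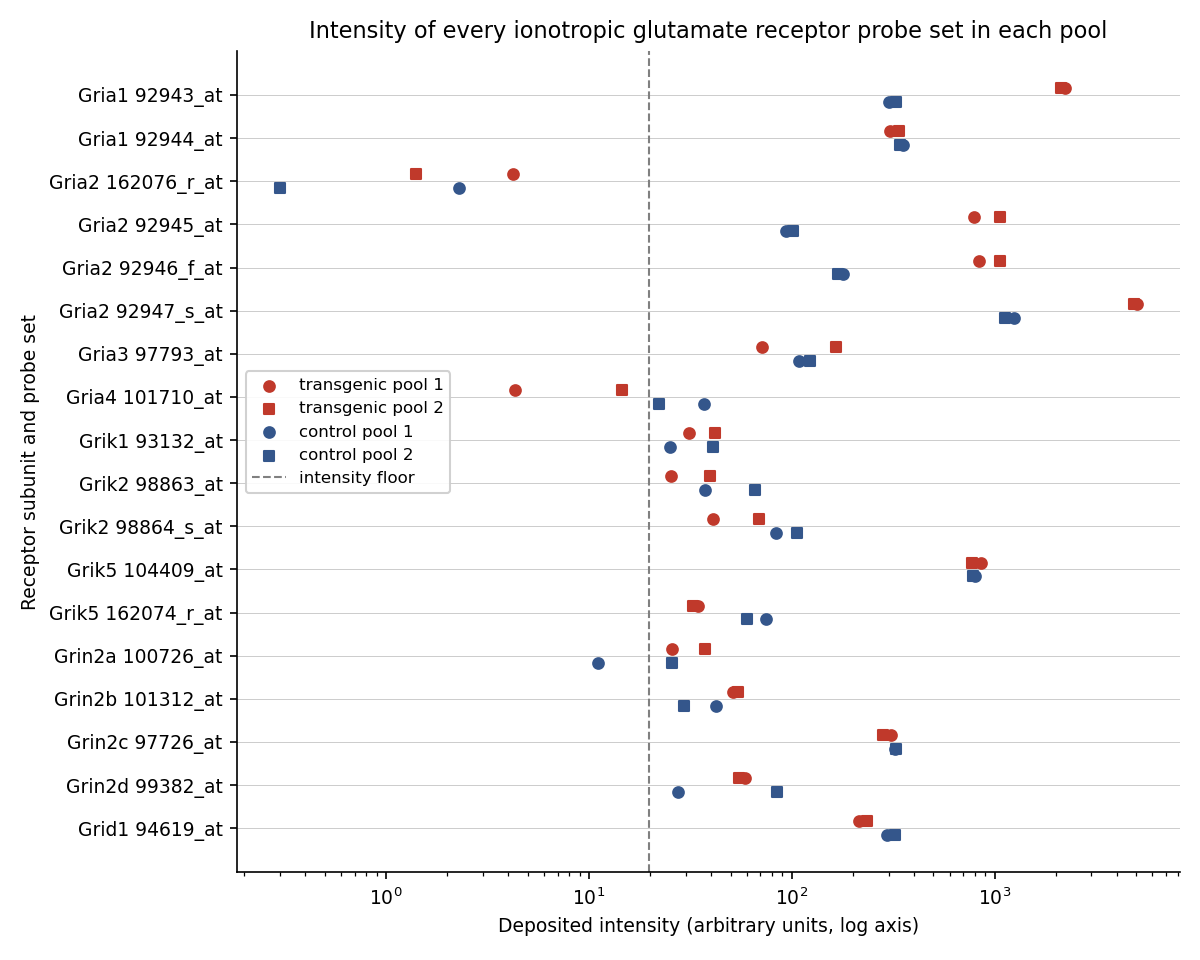
Deposited intensity (log axis, arbitrary units) of each receptor probe set in the 2 transgenic pools (red) and the 2 control pools (blue), with circles for pool 1 and squares for pool 2; the dashed line is the floor of 19.675. The pools stand far apart at Gria1 92943_at and at 3 Gria2 probe sets, and lie close together at Grik5 104409_at and at Gria1 92944_at.

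Gria1 encodes an AMPA subunit whose delivery to the synapse is tied to plasticity. At probe set 92943_at its intensity was 2226.6 and 2125.6 in the transgenic pools, against 303.3 and 324.9 in the control pools. Both transgenic values lay far above both control values, and the pools of a group differed little. The means were 2176 ± 71.4 in transgenic pools and 314.1 ± 15.3 in control pools (SD, n = 2 each). This was a 6.93-fold rise, with a log2 change of 2.79 ± 0.13 (SE; limma adjusted p = 8.90e-07), and it ranked 71 by size among the rises.

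The other Gria1 probe set, 92944_at, is listed under a different source sequence. It read 305.3 and 337.5 in the transgenic pools, against 353.8 and 341.7 in the control pools. Both transgenic values lay just below both control values. Its log2 change was -0.12 ± 0.15 (95% confidence interval -0.46 to 0.23; limma adjusted p = 0.706), an interval that excludes a rise of the size seen at 92943_at. The changes at the Gria1 probe sets differed by 2.91 ± 0.24 on the log2 scale (SE; limma adjusted p = 0.000249 over 1213 pairs of probe sets of the same gene). Of those pairs, 9.98% passed. Probe sequences were not used here, so the part of the Gria1 transcript that each probe set reads is not given.

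Gria2, the subunit that sets the calcium permeability of AMPA receptors, was read by 4 probe sets. Probe set 92945_at read 791.3 and 1060.1 in the transgenic pools, against 93.4 and 102.0 in the control pools. It rose 9.38-fold (log2 change 3.23 ± 0.18 SE, limma adjusted p = 3.41e-06) and ranked 54 among the rises, the highest of the receptor probe sets. Probe set 92946_f_at, listed under the same source sequence, read 840.6 and 1060.9 in the transgenic pools, against 178.5 and 169.4 in the control pools. It rose 5.43-fold (log2 change 2.44 ± 0.16 SE, limma adjusted p = 1.03e-05). At both of these probe sets the transgenic pools were several times brighter than the control pools, and transgenic pool 2 was the brighter of its group.

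Probe set 92947_s_at, from a different source sequence, read 5034.1 and 4874.4 in the transgenic pools, against 1250.2 and 1123.8 in the control pools. The means were 4954 ± 113 in transgenic pools and 1187 ± 89.4 in control pools (SD, n = 2 each), a 4.18-fold rise (log2 change 2.06 ± 0.11 SE, limma adjusted p = 2.69e-06). By the array maker's naming, the letters f and s mark probe sets whose probes can match more than 1 transcript, so these signals may include related transcripts. The last Gria2 probe set, 162076_r_at, lay below the intensity floor on every array (4.2 and 1.4 in transgenic pools, 2.3 and 0.3 in control pools) and was not tested. Thus Gria2 rose at every probe set that gave a measurable signal. All 4 probe sets that rose were also above the brightness limit in the control pools alone, so none of them was tested only because it was high in the transgenic pools.

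The size of the Gria2 rise was not the same at every probe set. The change at 92945_at exceeded that at 92947_s_at by 1.17 ± 0.27 on the log2 scale (SE; limma adjusted p = 0.0390). The differences between 92945_at and 92946_f_at (0.79 ± 0.24, 95% confidence interval 0.23 to 1.35, adjusted p = 0.0967) and between 92946_f_at and 92947_s_at (0.38 ± 0.25, interval -0.22 to 0.98, adjusted p = 0.440) did not pass in the same limma fit. With the brightness filter at the 60th percentile the first of these passed (adjusted p = 0.0251). The difference between 92945_at and 92947_s_at lost its call whichever array was left out (adjusted p between 0.0612 and 0.167). Among the 124 genes with 3 or more tested probe sets, 21 had a probe set that rose, and in 3 of these (Cadm1, Gria2 and Mapt) every tested probe set did. These 3 are named after their values were seen.

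Without the filter on dim probe sets, Gria1 92943_at still passed (adjusted p = 0.0297) and the Gria2 probe sets did not, with limma adjusted p of 0.0699 at 92945_at, 0.0729 at 92946_f_at and 0.0505 at 92947_s_at. In that setting 0.386% of 12422 probe sets passed.

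**Figure D2:**
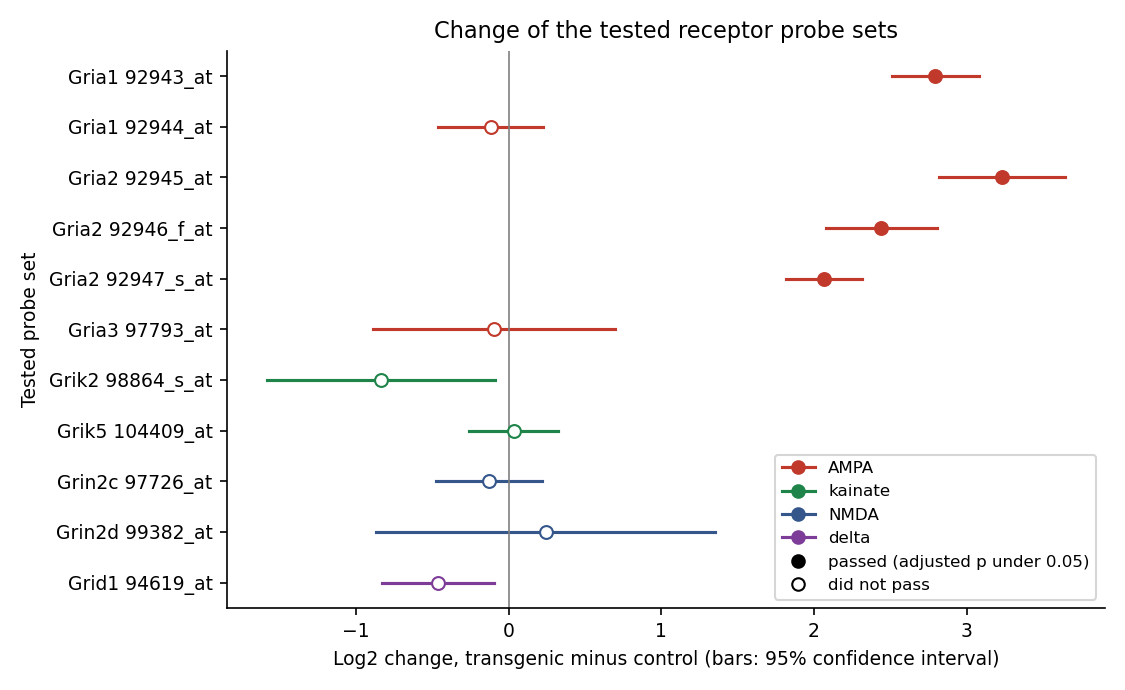
Log2 change (transgenic minus control) of the 11 tested receptor probe sets with 95% confidence intervals, coloured by receptor class; filled points passed the test. The 4 filled points are Gria1 92943_at and the 3 Gria2 probe sets, and the 7 open points lie between -0.83 and 0.24.

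The sequence upstream of Gria2 is shown because Gria2 rose at each of its measurable probe sets, beside that of the kainate subunit Grik5, whose brightest probe set gave a change close to 0. RefSeq promoter entries (mouse build GRCm38.p6) matched 6 of the 12 receptor genes. Each sequence below is the 250 bases before the annotated start, 5′ to 3′ on the gene's strand, at chr3:80802836-80803085 (minus strand) for Gria2 and chr7:25072370-25072619 (minus strand) for Grik5. Capitals mark matches to the Sp1 GC box.
Gria2: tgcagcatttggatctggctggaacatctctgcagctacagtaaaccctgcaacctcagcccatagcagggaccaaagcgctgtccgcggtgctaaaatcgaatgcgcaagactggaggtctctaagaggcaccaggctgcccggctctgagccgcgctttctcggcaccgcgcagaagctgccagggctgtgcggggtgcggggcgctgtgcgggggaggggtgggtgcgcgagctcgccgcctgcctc
Grik5: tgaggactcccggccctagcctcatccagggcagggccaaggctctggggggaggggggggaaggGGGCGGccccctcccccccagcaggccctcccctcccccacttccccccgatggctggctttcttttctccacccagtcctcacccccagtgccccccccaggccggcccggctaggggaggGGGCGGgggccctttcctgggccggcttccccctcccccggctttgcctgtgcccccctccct
Grik5 held 2 matches to the GC box GGGCGG and Gria2 held 0, counting both strands, and 32.7% of all 32851 promoter windows of this length held at least 1. The TATA box TATAAA and the full CREB site TGACGTCA, which stand in 12.4% and 1.55% of all windows on either strand, had 0 matches in both. The motifs do not overlap one another in the printed windows. G and C made up 64.8% of the Gria2 window and 75.2% of the Grik5 window, against a median of 52.4% over all windows. Among the other receptor genes with an entry, Grin2c held 3 GC box matches, and Gria4, Grik2 and Grin2d held 0. None of these genes was called as higher, and Gria4 was not tested. These counts describe the letters of the windows only.

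The other AMPA subunits did not pass. Gria3, at 97793_at, read 71.5 and 164.8 in the transgenic pools, against 109.0 and 123.4 in the control pools. The control values lay between the transgenic ones, and the log2 change was -0.10 ± 0.35 (95% confidence interval -0.89 to 0.70; limma adjusted p = 0.906). Gria4, at 101710_at, read 4.3 and 14.5 in the transgenic pools, both under the floor, against 36.9 and 22.2 in the control pools, and it was too dim to be tested. Its groups did not overlap, as was the case for 11 of the 18 receptor probe sets and for 47.8% of all 12422 probe sets.

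Among kainate subunits, Grik5, an auxiliary-type subunit that forms channels only together with other kainate subunits, was level between the groups at its brighter probe set. That probe set, 104409_at, read 859.1 and 770.9 in the transgenic pools, against 804.0 and 787.3 in the control pools. The groups overlapped, and the log2 change was 0.03 ± 0.13 (95% confidence interval -0.26 to 0.32; limma adjusted p = 0.915). The dim Grik5 probe set 162074_r_at read 34.6 and 32.7 in the transgenic pools, against 74.5 and 60.1 in the control pools, with both transgenic values lower. It lay just under the brightness filter, with a mean log2 intensity of 5.57 against the limit of 5.63, and in the fit without that filter its log2 change was -0.99 ± 0.17 (limma adjusted p = 0.195). In that fit the changes at the Grik5 probe sets differed by 1.02, which did not pass (adjusted p = 0.128).

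Grik2, which can form kainate channels by itself, was read by 2 probe sets, of which the 1 tested did not pass. Probe set 98864_s_at read 40.9 and 68.7 in the transgenic pools, against 84.1 and 106.2 in the control pools. Its log2 change was -0.83 ± 0.33 (95% confidence interval -1.58 to -0.09; limma adjusted p = 0.157). Probe set 98863_at was too dim to be tested and its groups overlapped, with 25.4 and 39.5 in the transgenic pools and 37.3 and 65.8 in the control pools. The kainate subunit Grik1, at 93132_at, was also too dim, with 31.0 and 42.0 in the transgenic pools and 25 and 40.7 in the control pools. The groups overlapped at Grik1 as well.

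The NMDA receptor was represented by its Grin2 subunits, which bind glutamate and set how long the channel stays open. Grin2c, at 97726_at, had pools that differed little within a group, at 308.3 and 282.5 in the transgenic pools and 321.4 and 324.8 in the control pools. Its log2 change was -0.13 ± 0.15 (95% confidence interval -0.48 to 0.22; limma adjusted p = 0.669). Grin2d, at 99382_at, read 58.8 and 54.9 in the transgenic pools, against 27.4 and 84.2 in the control pools. Its control pools differed widely, so the interval was broad (log2 change 0.24 ± 0.49, 95% confidence interval -0.87 to 1.35; limma adjusted p = 0.815), and with a mean log2 intensity of 5.71 it was the receptor probe set just inside the brightness filter.

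Grin2a and Grin2b, the main glutamate-binding NMDA subunits of the adult forebrain, had mean signals under the brightness filter and were not tested. Grin2a, at 100726_at, read 25.7 and 37.3 in the transgenic pools, against 11.1 and 25.7 in the control pools. Grin2b, at 101312_at, read 51.2 and 54.2 in the transgenic pools, against 42.3 and 29.5 in the control pools. The groups did not overlap at Grin2b, as at 47.8% of all 12422 probe sets. Mean signals of both were higher in the transgenic pools, but the groups overlapped at Grin2a. In the fit without the brightness filter neither passed (limma adjusted p = 0.631 for Grin2a and 0.454 for Grin2b). Grin2a and Grin2b are abundant in cortical neurons, so the low signals set a limit on what these probe sets can show.

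Grid1, the delta subunit found in forebrain, read 213.5 and 233.8 at 94619_at in the transgenic pools, against 293.5 and 322.8 in the control pools. Both transgenic pools lay below both control pools, with means of 224 ± 14.4 in transgenic pools and 308 ± 20.7 in control pools (SD, n = 2 each). The log2 change was -0.46 ± 0.16 (95% confidence interval -0.83 to -0.09), and it did not pass after adjustment over all tested probe sets (limma adjusted p = 0.116). It did not pass in any of the 15 alternative settings run (adjusted p between 0.0907 and 0.402).

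Across the classes, the median log2 change of the tested probe sets was 2.25 for AMPA subunits (6 probe sets of 3 genes), -0.40 for kainate subunits (2 probe sets), 0.06 for NMDA subunits (2 probe sets) and -0.46 for Grid1 alone. Over all 11 it was 0.03, against -0.03 over all tested probe sets. The AMPA median rests on Gria2, which supplies 3 of its 6 probe sets. Counted as genes, 2 of 8 tested receptor genes had a probe set that rose. These were Gria1 and Gria2, which each have 2 or more tested probe sets. Of all 909 genes with 2 or more tested probe sets, 110 had a probe set that rose.

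**Figure D3:**
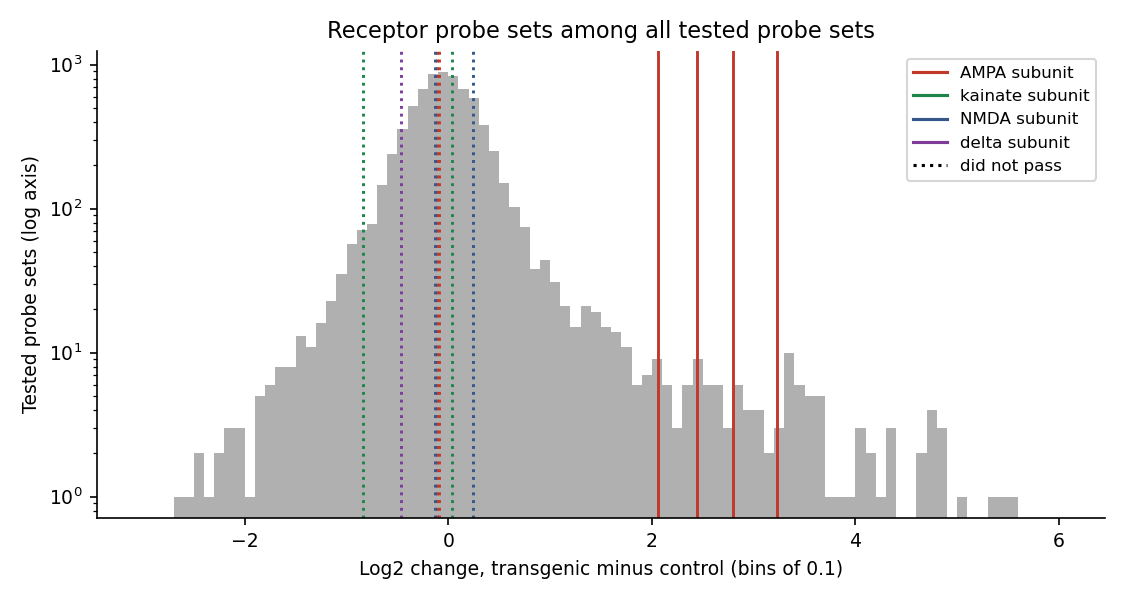
Histogram of log2 changes (transgenic minus control) of all 7453 tested probe sets in bins of 0.1 (log axis for the counts), with a vertical line for each tested receptor probe set; dotted lines did not pass. The 4 solid lines, all AMPA subunits, stand at 2.06 to 3.23 in the right tail, and the 7 dotted lines stand in the body of the distribution.

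The tested probe sets with the profile most like that of Gria1 92943_at over the 4 arrays, by root mean square difference of centred log2 values, were Igf1r 102224_at (0.055), Cdh13 104743_at (0.065) and Pbrm1 92703_at (0.086). Igf1r is the insulin-like growth factor receptor, Cdh13 a cadherin, and Pbrm1 a subunit of a chromatin remodelling complex. Those most like Gria2 92947_s_at were Celsr2 92363_at (0.016), Neurod2 98808_at (0.069) and Snrk 97429_at (0.079). Celsr2 is an adhesion receptor of the cadherin superfamily, Neurod2 a transcription factor of cortical excitatory neurons and Snrk a kinase. With 4 arrays in 2 groups, such likeness mostly repeats the size of the change.

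Other genes of glutamate transmission were described from 4 lists. Over all tested probe sets 5.46% rose and 4.56% fell. The falls in these lists depended on the settings: 6 probe sets fell in all, against 0 without the intensity trend. Fewer also fell with either transgenic array left out. Over all tested probe sets the falls went from 340 to 123 without the intensity trend. Among genes that accompany or traffic AMPA receptors, 1 tested probe set rose, 3 fell and 14 did not pass, with a median log2 change of -0.27. The rise was Cacng2 (stargazin), the auxiliary subunit that brings AMPA receptors to the synapse, at 635.8 and 502.9 in the transgenic pools and 67.4 and 116.9 in the control pools (log2 change 2.67 ± 0.26 SE, limma adjusted p = 0.000121). Both probe sets of Ap2a2 fell, by 0.63 and 0.55 on the log2 scale. Ap2a2 is a subunit of the clathrin adaptor that takes up receptors from the membrane. The remaining fall was at Adar 96188_at, by 1.04. Adar is an RNA-editing enzyme, and so is Adarb1, which did not pass. Adarb1 had -0.26 at 161436_s_at and -0.15 at 93153_at (limma adjusted p = 0.254 and 0.607). Editing of Gria2 RNA was not measured.

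Among postsynaptic density genes and receptor kinases, 4 tested probe sets rose, 3 fell and 11 did not pass (median log2 change -0.01). The scaffold genes Dlgap4, Baiap2 and Homer2 rose by 1.21, 1.14 and 0.68, although the other tested Baiap2 probe set had -0.54 and did not pass. Camk2a, the kinase that phosphorylates AMPA receptors in plasticity, fell by 1.54, with 31.2 and 62.9 in the transgenic pools and 136.6 and 121.0 in the control pools, and it was bright enough to be tested only through the control pools. The scaffold Lin7b fell by 0.62. Prkcb, a protein kinase C, went both ways, with log2 changes of 4.84 at 99511_at, where 1 control array was at the floor and the probe set was tested only through the transgenic pools, and -0.40 at 99510_at.

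Of 9 tested probe sets of glutamate transport and synthesis genes, 0 passed (median log2 change -0.04; smallest adjusted p for Glul, glutamine synthetase, with -0.47 ± 0.19 and limma adjusted p = 0.171, then Glud1 with 0.26 and Got2 with -0.24). At an unadjusted p under 0.05 the count was 1 of these 9, and 1811 over all tested probe sets. The only tested metabotropic receptor, Grm8, had -0.18 ± 0.20 (limma adjusted p = 0.651). The lists were read as counts only, and no test of a list as a whole was made.

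**Figure D4:**
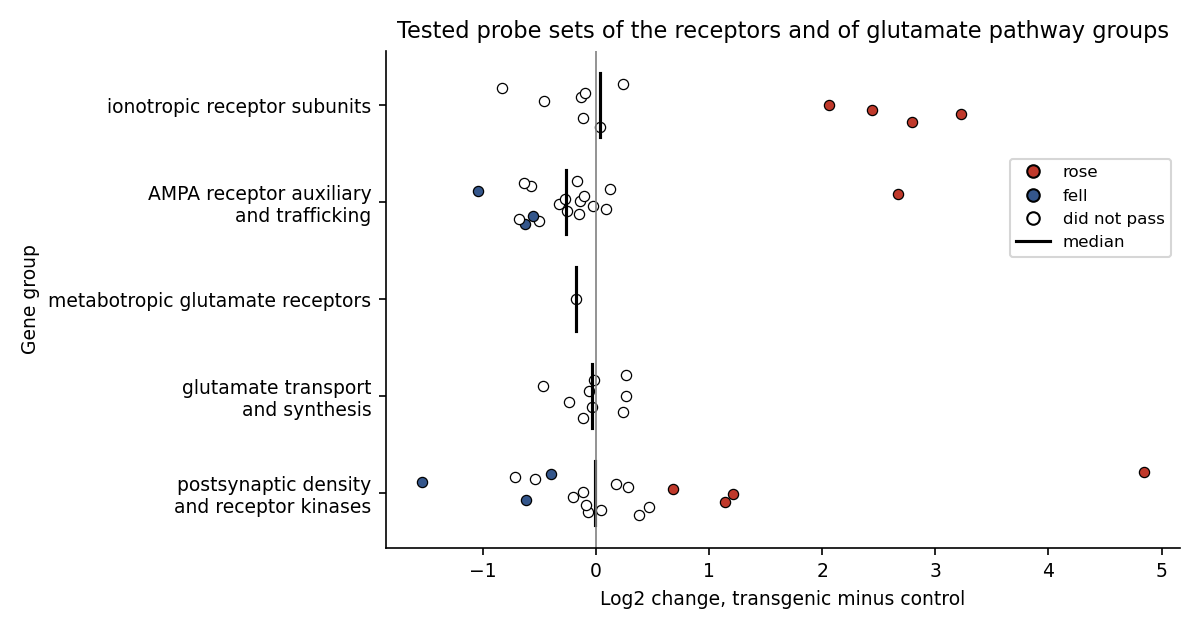
Log2 change (transgenic minus control) of each tested probe set of the ionotropic receptors and of 4 groups of glutamate genes; red points rose, blue points fell, open points did not pass, and bars are medians. The medians of the 5 groups lie between -0.27 and 0.03, and the 4 red receptor points lie at 2.06 to 3.23.

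Marker genes show what else differed between the pools, where 5.46% of all tested probe sets rose and 4.56% fell. Of the 9 marker rises, 4 were at probe sets that were bright enough to be tested only through the transgenic pools (Elavl4, both Aqp4 probe sets and Flt1 98453_at), so they had to differ to be tested and their counts are given as a description. The neuronal markers summed to 26239 and 28025 in the transgenic pools, against 32214 and 31468 in the control pools, and of 13 tested probe sets 1 rose (Elavl4, by 3.47) and 2 fell (Uchl1 by 0.40 and Snap25 by 0.37). All 11 neuronal genes on the array were above the floor in at least 1 pool. The blood markers summed to 11914 and 10201 in the transgenic pools, against 3882 and 3428 in the control pools, and all 3 tested probe sets rose (Hbb-b2 by 1.70, Hba-a1 by 1.58 and Alas2 by 1.30). The blood marker Slc4a1 was too dim to be tested and went the other way. It read 26.1 and 41.6 in the transgenic pools, against 48.9 and 49.5 in the control pools. Astrocyte markers summed to 10085 and 11118, against 9568 and 9812 in the control pools, with 3 rises (Aqp4 by 3.69 and 2.10, Fabp7 by 1.54) and 1 fall (S100b by 0.67) among 13. Endothelial markers summed to 2029 and 1749, against 1600 and 1595 in the control pools, with 2 rises among 9, both of Flt1 (by at least 3.03 at 98453_at, a lower bound since both control arrays were at the floor, and by 0.85 at 98452_at).

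In each of the remaining lists 0 or 1 tested probe set passed, where 10% of all tested probe sets passed. Microglial markers summed to 3540 and 3242 in the transgenic pools, against 3869 and 4114 in the control pools, with 1 fall among 10 (Tyrobp by 0.95) and Fcer1g and Ptprc at the floor on every array. Choroid plexus and meningeal markers summed to 18514 and 18472, against 21757 and 22780 in the control pools, with 1 fall among 9 and Kl at the floor throughout. The fall was at Ptgds 92546_r_at, by 0.64, while the other tested Ptgds probe sets had -0.20 and -0.08 and did not pass. Oligodendrocyte markers summed to 5750 and 6172, against 6011 and 7498 in the control pools, with 1 fall among 14 and Cnp at the floor. The fall was at Mobp 99047_at, by 1.02, while the other tested Mobp probe sets had -0.85, -0.65 and 0.06 and did not pass. Striatal markers summed to 4634 and 3124, against 2402 and 4708 in the control pools, with 0 of 6 passing in limma, 0 also at an unadjusted p under 0.05 (smallest p for Pdyn, Drd2 and Penk), and Rgs9 at the floor. The part of these differences in the receptor results was not tested, and in pooled tissue fewer cells of a type and less RNA per cell cannot be told apart.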

How the data were processed

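Prefrontal cortex RNA of pooled mice labelled as female was measured on 4 single-channel arrays, and groups and replicate numbers came from the sample titles. For each array the authors deposited 1 intensity per probe set, linear by its values. How it was derived, and from which build, the sources used here do not state. Medians differed by at most 1.85% between arrays, so no further normalization was applied. After 66 control probe sets were left out, 12422 remained, of which 10833 had a single gene in the platform annotation, 396 several and 1193 none. Of the single symbols, 10817 were matched by gene identifier to RefSeq (GRCm38.p6).

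Intensities were floored at their 25th percentile (19.675) and log2-transformed. Probe sets with a mean log2 above the 40th percentile entered a limma fit (version 3.58.1, R 4.3.3; eBayes with intensity trend, two-sided), transgenic minus control. Folds are ratios of geometric means of the floored values. Differences between probe sets of 1 gene were tested on per-array log2 differences, over all such pairs and without a trend. The scripts were tested on simulated data. All receptor probe sets are named, with every list member that passed, otherwise up to 3 of smallest p, and the 3 nearest profiles. The members and lists were chosen with earlier results of these data known. No batch is given in the labels, so a batch and the group cannot be told apart. No source says whether a probe set reads the human transgene, so it gives no check of the labels.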

Additional observations from a re-analysis of the deposited data

How the results depend on the processing

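The 4 rises among receptor probe sets, and the count of 0 falls, were the same with median scaling, quantile normalization, floors at the 10th or 40th percentile, log2(value + 50), a filter at the 60th percentile, no intensity trend, a robust prior, and with any 1 array left out. Without the filter on dim probe sets 1 receptor probe set passed as higher. The prior degrees of freedom were 0.748 there, against 7.51 with the filter. With the brightest probe set per gene 2 of 8 passed, since 1 Gria2 probe set was then tested. In that setting 9.75% of 5701 probe sets passed in either direction, and 290 were higher. The count of receptor probe set pairs that differed was 2, and it was 1 with quantile normalization, 1 with log2(value + 50) and 1 to 1 with 1 array left out; the Gria1 pair was past the threshold in all of these. With the filter at the 60th percentile it was 3, the pair of Gria2 92945_at with 92946_f_at being added. Without the filter it was also 2, but as the Gria1 pair and a pair of Gria2 92947_s_at with 162076_r_at, which lies at the floor. For the pathway lists together 5 probe sets were higher and 6 lower. The higher count was 0 without the filter, 3 with the brightest probe set per gene and 3 to 4 with 1 array left out. The lower count was 0 without the filter, 0 without the intensity trend and 1 to 7 with 1 array left out, with 1 without either transgenic array. The counts over all tested probe sets moved as well. Without the filter the higher count went from 407 to 34 and the lower count from 340 to 14. Without the intensity trend they were 272 and 123. The cause of these shifts was not tested. The deviations of same-numbered pools from their group means correlated at 0.056, so the numbers were not taken to pair the samples, and with the replicate number as a block 4 receptor probe sets rose, 0 fell and 2 pairs differed. Where an arm has 1 array, it is assumed to vary like the other group. For probe sets near the floor of 19.675 or under the brightness filter, the signal limits what could be seen. These were Gria4, Grik1, Grik2 98863_at, Grik5 162074_r_at, Grin2a, Grin2b and Gria2 162076_r_at.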
